A study of Homo sapiens with 5 samples.

Results

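The glycolysis and hypoxia response genes described here are 41 genes of the deposited count table, chosen by name as glycolytic enzymes, their transporters and regulators, and the hypoxia-inducible factor (HIF) system with its targets. The list was proposed with earlier results of these data known. All 41 were found among the 30476 Ensembl gene identifiers of the table, and all 41 received an adjusted p in each comparison. They were grouped by role into 4 transporters, 17 glycolytic enzymes, 4 regulators of glycolytic flux, 4 HIF subunits and oxygen sensors, and 12 other HIF targets. RNA-seq was performed in TOV21G, a cell line established from ovarian clear cell carcinoma, and all libraries share its ARID1A mutation. Cells resistant to GSK126, an inhibitor of the histone methyltransferase EZH2, had been obtained by stepwise exposure from 5 to 20 uM, after which single clones were picked. The 5 libraries were parental cells (1 library) and 2 clones of EZH2 inhibitor-resistant (EIR) cells, numbered 3 and 4, with an untreated and a GSK126-treated library of each (4 libraries). Neither the dose nor the length of that exposure is in the labels, which also do not say whether libraries came from separate cultures, so p-values measure the spread between these libraries only.

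Glycolysis splits glucose into pyruvate in the cytosol, and lactate dehydrogenase turns pyruvate into lactate, which leaves the cell through monocarboxylate transporters. HIF is a dimer of an oxygen-sensitive alpha subunit and ARNT. With oxygen present, prolyl hydroxylases of the EGLN family mark the alpha subunit for degradation through VHL. When oxygen falls, HIF accumulates and activates glycolytic genes and genes for blood vessel growth, pH control and mitophagy through a short promoter element with the core letters ACGTG or GCGTG. The alpha subunit is controlled mainly as a protein, and the libraries measure RNA. Ovarian clear cell carcinoma is known for high glycogen and a hypoxia-like expression program.

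Estimated counts summed to between 25479238 and 30764963 per library, and the 41 genes held 2.10 to 2.48% of them. Values are normalized read counts (counts divided by DESeq2 size factors), and a gene was called with a DESeq2 adjusted p under 0.05 over all genes tested. Of the clear cell markers, PAX8 was present in every library (3083 to 4523 normalized read counts) and KRT7 was at 81.6 in parental cells and 159 to 194 in the EIR libraries (a log2 difference of 1.11, DESeq2 adjusted p 0.0048, and 0.0645 in edgeR). NAPSA had 2.01 in parental cells, 49.1 and 49.4 in clone 3, and 6.10 and 4.23 in clone 4 (clone 4 against clone 3 -3.27, DESeq2 adjusted p 0.0095). EPCAM had 401 normalized read counts in parental cells and 394 and 492 in clone 3, but 0 and 1.06 in clone 4. The leukocyte genes PTPRC and CD14 and the endothelial gene CDH5 had at most 27.2. In bulk RNA, fewer cells with a transcript and less of it per cell cannot be told apart.

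Levels differed by more than 3 orders of magnitude among the members. Per kilobase of the canonical transcript, the mean over the 5 libraries was highest for GAPDH (76624 normalized read counts per kb), followed by ENO1 (73287), LDHB (38087), TPI1 (35382), PKM (30575) and LDHA (25659). These are enzymes of the lower, energy-yielding stretch of glycolysis, the isomerase that feeds it, and the lactate dehydrogenase subunits. GAPDH had 101775 normalized read counts in parental cells, 93568 and 87865 in untreated and GSK126-treated clone 3, and 104261 and 104840.3 in untreated and GSK126-treated clone 4. Among transporters the lactate carrier SLC16A1 was highest (1159.8 per kb) and its relative SLC16A3 lowest (261 per kb). Of the glucose transporters, SLC2A3 had 767 per kb and SLC2A1 had 561. SLC16A1 had 4734 normalized read counts in parental cells and 3882 to 4623 in the EIR libraries, all below parental, and it was not called. PFKFB3 was the highest flux regulator per kb (1594), HIF1A the highest of the HIF subunits and oxygen sensors (10853.5), and DDIT4 the highest of the other HIF targets (5213.5). The rank of DDIT4 came from parental cells (17297 per kb), since over the EIR libraries it had 2193 per kb, below BNIP3 (3641) and P4HA1 (2513). CA9 had the lowest mean over the 5 libraries (22.0 per kb).

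The first question was how these genes differed between EIR and parental cells. Of the 41 members 12 were called (29.3%), against 25.5% of the 16288 genes tested. Of these, 9 members fell (22.0%, against 13.2% of all genes) and 3 rose (7.32%, against 12.4%). Over the expressed genes (mean of at least 100 normalized read counts) 30.5% were called, 16.3% lower and 14.2% higher. The median log2 fold change was -0.15 over the members and 0.003 over all genes tested. The genes that fell were an oxygen sensor (EGLN3), stress and hypoxia targets (DDIT4, NDRG1, ANKRD37), the glucose transporter SLC2A3 and 4 enzymes (HK1, PFKL, PFKP, PGAM1), whereas HIF1A, CA12 and ADM rose. Parental cells have 1 library, so the spread comes from the EIR libraries alone, and a pair of libraries from 1 clone is not a pair of clones. In all 4 EIR libraries 17 members lay below parental (41.5%, against 36.6% of all genes tested) and 6 above (14.6%, against 33.4%). PFKM is counted among the 17 although its GSK126-treated clone 3 library equalled parental to the first decimal (4053.9 normalized read counts).

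**Figure D1:**
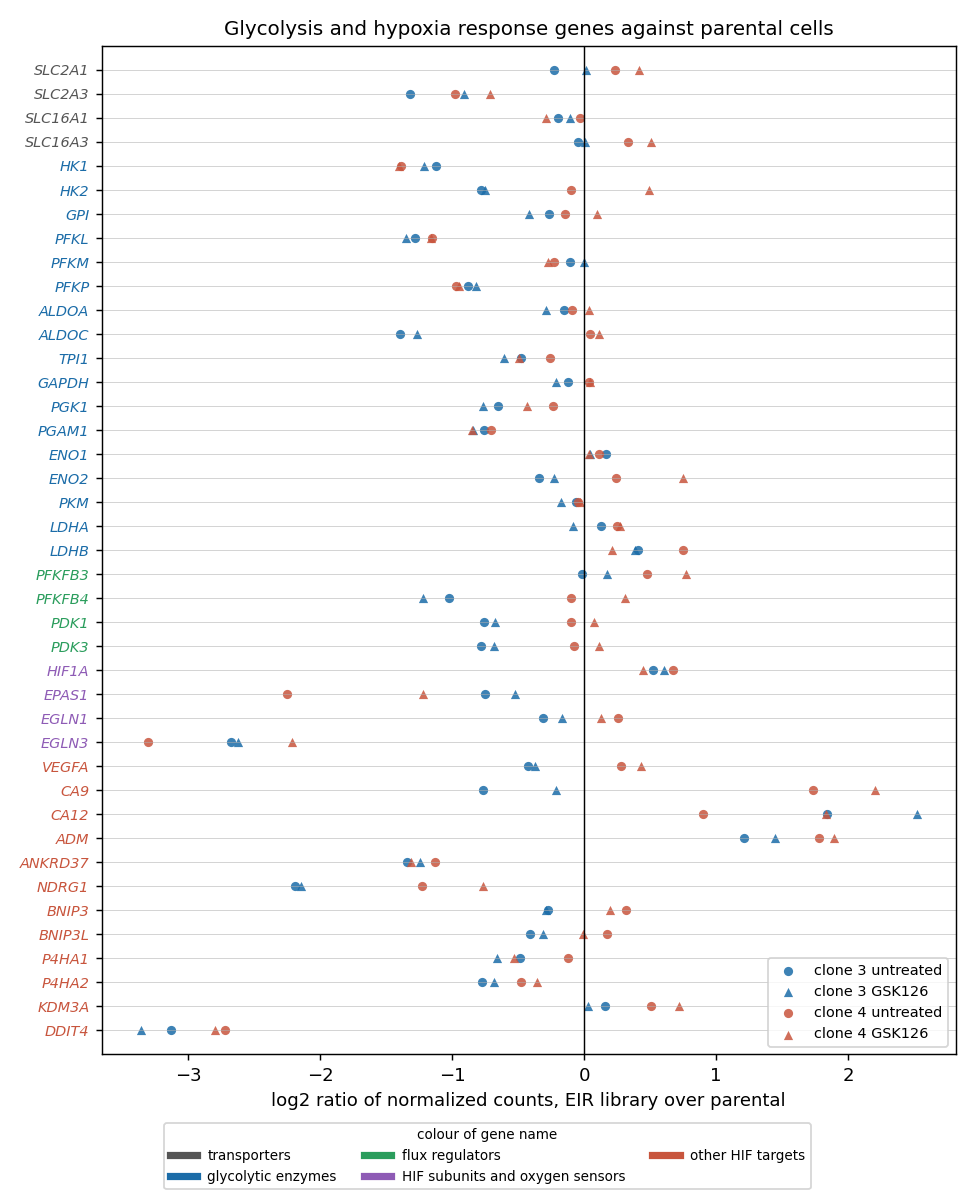
Each point is the log2 ratio of normalized read counts of 1 EIR library over the parental library (x axis) for 1 of the 41 genes (y axis, names coloured by role). Circles are untreated and triangles GSK126-treated, blue is clone 3 and red is clone 4. DDIT4 and EGLN3 lie furthest left in all 4 libraries, CA12 and ADM lie to the right in all 4, and for genes such as ALDOC, NDRG1, PFKFB4 and CA9 both clone 4 points lie to the right of both clone 3 points.

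The largest difference was that of DDIT4 (ENSG00000168209, GRCh37 chromosome 10, 74033678 to 74035794, plus strand), a HIF and stress target that restrains mTORC1. DDIT4 had 30235 normalized read counts in parental cells, 3446 and 2947 in untreated and GSK126-treated clone 3, and 4577 and 4362 in clone 4. All 4 EIR libraries were thus far below parental, with a mean of 3833 ± 768 (SD, n = 4), a 7.89-fold lower level. The log2 fold change was -2.98 (SE 0.30, DESeq2 adjusted p 1.183e-20), and the call held in all 12 alternative settings, with an adjusted p of at most 0.0076. The setting with a minimum absolute log2 fold change of 1 only filters the main calls, so it could not drop DDIT4. The 12 HIF targets of this role summed to 63140 normalized read counts in parental cells and to 27128 to 38325 in the EIR libraries. DDIT4 alone held 30235 of the parental sum and 2947 to 4577 of the EIR sums, so most of this fall was its own. Over the 12 genes the median log2 fold change was -0.05, with 6 positive and 6 negative values. EGLN3 (ENSG00000129521, GRCh37 chromosome 14, 34393433 to 34931980, minus strand), a prolyl hydroxylase that is itself induced by HIF, had 447 normalized read counts in parental cells, 69.4 and 72.1 in clone 3, and 44.8 and 96.3 in clone 4. Every EIR library was far below the parental value, and EGLN3 fell by 2.66 on the log2 scale (SE 0.47, DESeq2 adjusted p 6.408e-07). The annotated EGLN3 locus overlaps SPTSSA on the same strand, and SPTSSA had a log2 fold change of -0.04. The other widely used sensor, EGLN1, had 5019.8 in parental cells and 4050.4 to 5992 in EIR cells, which lie on both sides of parental.

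The 250 bases before the start sites of these genes are shown because DDIT4 and EGLN3 had the largest falls of the list and differ in the HIF core letters. Sequences are from RefSeq (GRCh38.p14), 5′ to 3′ on the gene's strand, with ACGTG or GCGTG on either strand in capitals. The DDIT4 window (chr10:72273674-72273923, plus strand) holds 1 ACGTG and 2 GCGTG matches, and the EGLN3 window (chr14:33951075-33951324, minus strand) holds 0.
DDIT4: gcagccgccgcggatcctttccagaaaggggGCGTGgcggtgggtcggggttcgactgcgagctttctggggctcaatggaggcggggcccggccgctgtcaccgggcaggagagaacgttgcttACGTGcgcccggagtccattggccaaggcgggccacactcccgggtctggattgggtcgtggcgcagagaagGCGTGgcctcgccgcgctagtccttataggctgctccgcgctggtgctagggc
EGLN3: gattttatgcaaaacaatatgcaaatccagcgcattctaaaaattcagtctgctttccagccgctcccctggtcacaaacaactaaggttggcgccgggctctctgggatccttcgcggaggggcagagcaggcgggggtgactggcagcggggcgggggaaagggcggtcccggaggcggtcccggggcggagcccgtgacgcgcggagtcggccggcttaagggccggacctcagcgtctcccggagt
A match of these letters is a description and not a bound site, and 0 matches say only that the letters are not in this window.

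Among the transporters, SLC2A3, a high-affinity glucose transporter, was the only member called. It had 4806 normalized read counts in parental cells, 1927.5 and 2564 in clone 3, and 2444.5 and 2926 in clone 4, so that all EIR libraries lay below parental (log2 fold change -0.96, SE 0.27, DESeq2 adjusted p 0.0034). Rows annotated as SLC2A3 pseudogenes held 13.8% of its level, so its count is uncertain to that extent. The other transporters had log2 fold changes of -0.15 (SLC16A1) to 0.22 (SLC16A3) and were not called.

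Of the glycolytic enzymes 4 of 17 fell (23.5%, against 13.2% of all genes tested) and 0 rose (against 12.4%). The share called in either direction was thus 23.5%, against 25.5% of all genes tested. It was 30.5% over the expressed genes (mean of at least 100 normalized read counts). HK1, the hexokinase that commits glucose to the pathway in most tissues (ENSG00000156515, GRCh37 chromosome 10, 71029740 to 71161640), had 13009.8 normalized read counts in parental cells, 5983 and 5624 in clone 3, and 4977 and 4917 in clone 4. The EIR values were close together and all far below parental (log2 fold change -1.28, SE 0.19, DESeq2 adjusted p 3.312e-09). PFKL, the liver-type phosphofructokinase subunit (ENSG00000141959, GRCh37 chromosome 21, 45719934 to 45747259), had 6981 in parental cells, 2866 and 2733 in clone 3, and 3147 and 3125 in clone 4. Again no EIR library reached the parental level, and PFKL fell by 1.23 on the log2 scale (SE 0.17, DESeq2 adjusted p 4.026e-11). Of the other phosphofructokinase subunits, the platelet-type PFKP had 26406 in parental cells against 13454 to 14991 in the EIR libraries (a log2 difference of -0.90, DESeq2 adjusted p 3.363e-08), whereas the muscle-type PFKM had a log2 fold change of -0.15 and was not called. PGAM1, a phosphoglycerate mutase, had 20471 in parental cells against 11363 to 12572 in the EIR libraries (a log2 difference of -0.79, DESeq2 adjusted p 2.461e-06). The 13 enzymes that were not called had log2 fold changes between -0.51 (PGK1) and 0.45 (LDHB). The most abundant enzymes were among them, with log2 fold changes of -0.06 for GAPDH, 0.09 for ENO1 and -0.08 for PKM. The summed level of the 17 enzymes was 589722 normalized read counts for parental cells and ranged from 505244.5 to 585840.8 over the EIR libraries.

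None of the flux regulators was called (log2 fold changes of -0.37 for PFKFB4 to 0.38 for PFKFB3). HIF1A, the ubiquitous alpha subunit, had 30975 normalized read counts in parental cells, 44459 and 47119 in clone 3, and 49297 and 42291 in clone 4. All 4 EIR libraries were higher than parental (log2 fold change 0.56, SE 0.16, DESeq2 adjusted p 0.0041). EPAS1, which encodes the HIF-2 alpha subunit, was below parental in all EIR libraries, but the clones differed widely and it was not called (log2 fold change -1.05, SE 0.57, DESeq2 adjusted p 0.1708).

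Among the other HIF targets, ADM and CA12 rose and NDRG1 and ANKRD37 fell besides DDIT4. ADM, which encodes the vasodilator peptide adrenomedullin, had 195 normalized read counts in parental cells, 453 and 533 in clone 3, and 673 and 727 in clone 4. Every EIR library was clearly above parental (log2 fold change 1.61, SE 0.35, DESeq2 adjusted p 7.850e-05). CA12, a membrane carbonic anhydrase, had 252 in parental cells, 903 and 1448 in clone 3, and 472 and 900.3 in clone 4, all above parental but spread widely (log2 fold change 1.89, SE 0.55, DESeq2 adjusted p 0.0045). NDRG1, a stress-responsive gene that is among the strongest hypoxia-induced transcripts in many cell lines, had 3649 in parental cells, 799.9 and 826 in clone 3, and 1559.5 and 2142 in clone 4. All EIR libraries were below parental, with clone 3 lowest (log2 fold change -1.45, SE 0.56, DESeq2 adjusted p 0.0413). ANKRD37, a small ankyrin repeat gene, had 305 in parental cells, 120.4 and 128.5 in clone 3, and 139 and 122.7 in clone 4 (log2 fold change -1.26, SE 0.29, DESeq2 adjusted p 1.475e-04). This gene overlaps UFSP2 on the opposite strand, whose log2 fold change was 0.37, and no source states that reads were counted by strand.

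**Figure D2:**
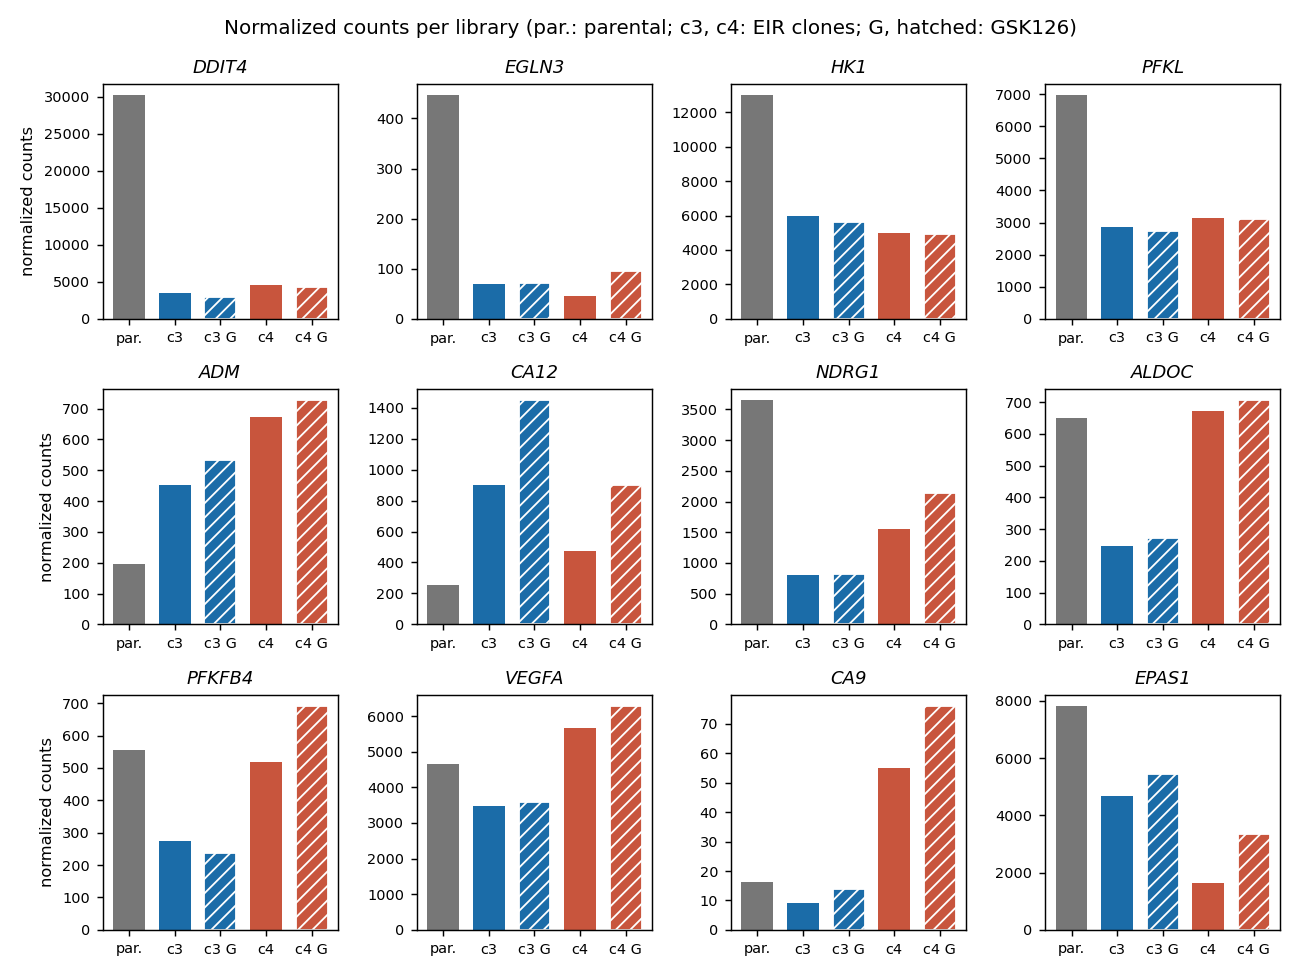
Bars give the normalized read counts (y axis, starting at 0) of 12 members in the 5 libraries: parental (grey), clone 3 (blue) and clone 4 (red), hatched where treated with GSK126. Each bar is 1 library and has no error bar. DDIT4, EGLN3, HK1 and PFKL are low in all 4 EIR libraries, while ALDOC, PFKFB4, VEGFA and CA9 are low in clone 3 and at or above parental in most clone 4 libraries.

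Some of these calls depended on the processing. In the quasi-likelihood test of edgeR, 9 members were called (against 11.1% of genes), and the adjusted p was 0.0819 for HIF1A, 0.1078 for CA12 and 0.1362 for NDRG1. With the libraries of each clone summed, the DESeq2 adjusted p was 0.1213 for HIF1A and 0.0790 for ANKRD37, and with treatment as covariate it was 0.0662 for HIF1A, 0.0569 for ANKRD37 and 0.0649 for NDRG1. The members were richer in GC (median 52.6%) than the expressed genes (47.1%), and over 11377 expressed genes the log2 ratio over parental fell with transcript GC content, at a Spearman rho of -0.50 to -0.40 in the 4 libraries, which share the parental library. After correction for this trend 13 members were called (3 higher, 10 lower, against 20.0% of genes), 10 of them also called without it. HIF1A then had a log2 fold change of 0.27 (DESeq2 adjusted p 0.0795) and NDRG1 an adjusted p of 0.1520, PFKL moved to -0.75 and PFKP to -0.54, while SLC16A1 and P4HA1 (lower) and ENO1 (higher, 0.37, adjusted p 0.0208) passed the threshold. HK1, PFKP, PGAM1 and DDIT4 lie on chromosome 10, as do the uncalled PFKFB3, BNIP3 and P4HA1. The 449 expressed genes of that chromosome had median log2 ratios over parental of -0.46 to -0.41 in the 4 libraries, against -0.11 to -0.05 over all expressed genes. The part of GC content or of chromosome 10 in these results was not tested.

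Clone 4 was next compared with clone 3, with treatment as covariate. Here 14 of 41 members were called (34.1%, against 9.81% of the 17708 genes tested). Higher in clone 4 were 12 (29.3%, against 3.30%) and lower 2 (4.88%, against 6.52%). Over the expressed genes 11.7% were called, 4.53% higher and 7.17% lower. The list was proposed with earlier results of these data known, so these shares describe it and are no independent evidence. The median log2 fold change was 0.30 over the members and -0.004 over all genes tested. Both clone 4 libraries lay above both clone 3 libraries for 26 members (63.4%, against 29.3% of all genes tested) and below them for 5 (12.2%, against 31.4%). All 4 flux regulators rose in clone 4 relative to clone 3, together with 3 of 17 enzymes (ALDOC, HK2, ENO2) and 5 of 12 other HIF targets (CA9, NDRG1, VEGFA, BNIP3, DDIT4). EPAS1 and CA12 were lower in clone 4, and 0 of 4 transporters were called. There is 1 library of each clone per treatment, so the comparison is between these clones.

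**Figure D3:**
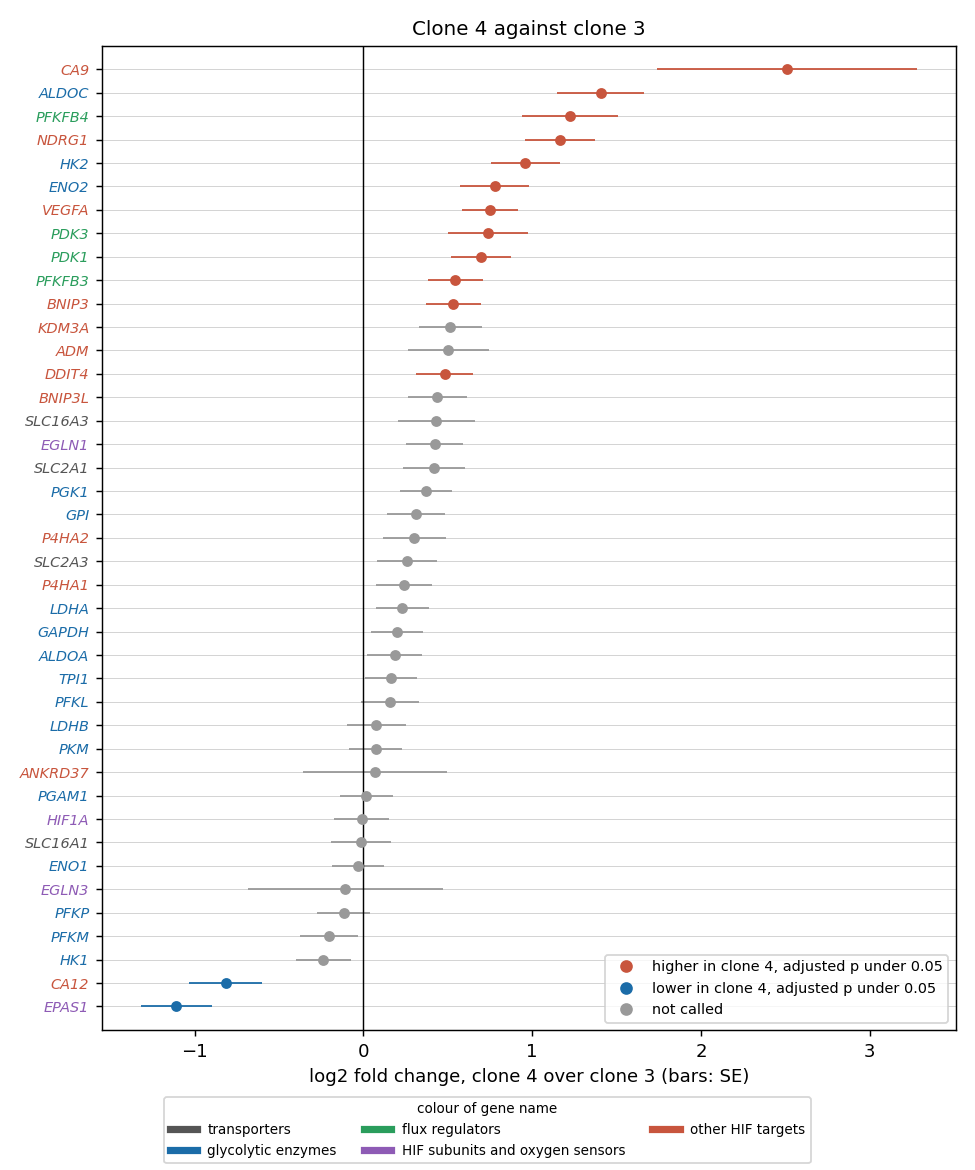
Points are DESeq2 log2 fold changes of clone 4 over clone 3 (x axis, bars are the SE, 2 libraries per clone) for the 41 genes, ordered by size, with names coloured by role. Red points were called higher in clone 4 (12 genes), blue points lower (2 genes) and grey points were not called (27 genes). CA9 lies furthest right and has the widest bar of the called genes, and EPAS1 lies furthest left.

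CA9, a carbonic anhydrase widely used as a marker of HIF activity (ENSG00000107159, GRCh37 chromosome 9, 35673925 to 35681156, plus strand), had 9.26 and 13.8 normalized read counts in untreated and GSK126-treated clone 3, 54.9 and 76.2 in clone 4, against 16.1 in parental cells. Both clone 4 libraries were above parental and both clone 3 libraries below it (log2 fold change 2.51, SE 0.77, DESeq2 adjusted p 0.0155). These levels rest on raw counts of 10 and 14 in clone 3 (95% Poisson intervals of 4.80 to 18.4 and 7.65 to 23.5) and 54 and 72 in clone 4 (40.6 to 70.5 and 56.3 to 90.7), and on 16 in parental cells (9.15 to 25.98), an interval that holds both clone 3 counts. The intervals cover counting error only. CA9 overlaps ARHGEF39 on the opposite strand, which had a mean of 499 normalized read counts and a log2 fold change of 0.10 between clones. ALDOC, the brain-type aldolase (ENSG00000109107, GRCh37 chromosome 17, 26900133 to 26903966, minus strand), had 247 and 271 in clone 3, 671 and 706 in clone 4, against 652 in parental cells. Clone 4 was thus near parental and clone 3 well below it (log2 fold change 1.41, SE 0.26, DESeq2 adjusted p 1.993e-06). ALDOA, the main aldolase of the cells, differed by 0.19 and was not called. PFKFB4, a bifunctional enzyme that sets fructose 2,6-bisphosphate (ENSG00000114268, GRCh37 chromosome 3, 48555117 to 48599448, minus strand), had 274 and 238 in clone 3, 519.8 and 692 in clone 4, against 557 in parental cells. The clones did not overlap, and the clone 4 libraries lay on either side of parental (log2 fold change 1.22, SE 0.28, DESeq2 adjusted p 3.716e-04). NDRG1, with the values given above, was higher in clone 4 by 1.16 (SE 0.21, DESeq2 adjusted p 8.593e-07), although both clone 4 libraries were below parental.

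The promoters of ALDOC, PFKFB4 and CA9 are shown because these genes had the largest differences between clones. The windows are chr17:28576896-28577145 (minus strand), chr3:48556804-48557053 (minus strand) and chr9:35673678-35673927 (plus strand), again 250 bases in RefSeq GRCh38.p14 with the core letters in capitals. ALDOC holds 3 ACGTG and 2 GCGTG matches, of which a pair overlap in the palindrome CACGTG, PFKFB4 holds 1 GCGTG, and CA9 holds 1 ACGTG on the reverse strand close to the start site.
ALDOC: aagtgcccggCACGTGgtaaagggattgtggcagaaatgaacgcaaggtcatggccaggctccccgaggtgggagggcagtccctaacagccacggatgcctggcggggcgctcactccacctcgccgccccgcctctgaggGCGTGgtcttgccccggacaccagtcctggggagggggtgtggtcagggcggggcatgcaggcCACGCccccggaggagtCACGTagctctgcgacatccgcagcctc
PFKFB4: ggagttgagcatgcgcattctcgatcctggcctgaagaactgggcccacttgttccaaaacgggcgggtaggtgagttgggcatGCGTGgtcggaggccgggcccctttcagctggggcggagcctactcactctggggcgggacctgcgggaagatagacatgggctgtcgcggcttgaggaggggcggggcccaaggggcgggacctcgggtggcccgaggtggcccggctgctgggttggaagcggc
CA9: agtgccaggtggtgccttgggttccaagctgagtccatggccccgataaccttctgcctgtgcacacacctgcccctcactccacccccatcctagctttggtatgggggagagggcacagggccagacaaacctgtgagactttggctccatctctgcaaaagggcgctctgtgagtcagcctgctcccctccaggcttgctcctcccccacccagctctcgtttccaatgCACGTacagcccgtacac
Promoter entries were matched for 36 of 41 members (SLC2A3, SLC16A1, VEGFA, NDRG1 and BNIP3L have none). Searched on both strands, ACGTG or GCGTG was found in 24 of these 36 windows (66.7%) and in 43.2% of the 35116 promoters of the table. ACGTG alone was in 41.7% against 18.5%, GCGTG in 41.7% against 32.2%, and CACGTG, which overlaps ACGTG and is also the E-box, in 13.9% against 6.34%. Of the 10 members higher in clone 4 that have an entry, 9 held either core (90.0%), and of the 24 members not called between clones 13 did (54.2%). EPAS1 and CA12, which were called lower in clone 4, each held 1 GCGTG. The members were chosen by name as genes of glycolysis and of the HIF system with its targets, and only some as HIF targets. Those higher in clone 4 were picked by these same data. These shares thus describe the list, and a part of HIF in the difference between clones was not tested.

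The other members that were higher in clone 4 differed less. HK2, the inducible hexokinase, had 1352 and 1381 normalized read counts in clone 3, 2172 and 3272 in clone 4, against 2327 in parental cells (log2 fold change 0.96, DESeq2 adjusted p 7.046e-05). HK1 had a log2 fold change of -0.24 in this comparison and was not called. ENO2, the neuronal enolase, had 1006 and 1089 in clone 3 and 1512 and 2148 in clone 4 (0.78, DESeq2 adjusted p 0.0025), and VEGFA, the vascular growth factor, had 3461.5 and 3601 in clone 3 and 5659 and 6285 in clone 4 (0.75, DESeq2 adjusted p 1.641e-04). For both genes clone 3 lay below parental (1276 and 4658) and clone 4 above it. The pyruvate dehydrogenase kinases, which inhibit the conversion of pyruvate to acetyl-CoA in the mitochondria, had similar differences (0.70 for PDK1, DESeq2 adjusted p 0.0014, and 0.74 for PDK3, adjusted p 0.0231). PDK1 had 2030.3 and 2144.5 in clone 3, 3197 and 3613 in clone 4, against 3425 in parental cells. PFKFB3 (0.54, DESeq2 adjusted p 0.0109), the mitophagy receptor BNIP3 (0.53, adjusted p 0.0157) and DDIT4 (0.48, adjusted p 0.0491) completed the 12. Rows annotated as BNIP3 pseudogenes held 38.6% of the BNIP3 level, so the assignment of its reads is uncertain.

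Relative to the parental library, the 12 genes did not sit alike in both clones. They were selected as higher in clone 4 than in clone 3, which by itself favours clone 3 values below parental and clone 4 values above. No such counts over all genes called higher in clone 4 are given, so the counts describe these 12 genes only. Both clone 3 libraries were below parental for 11 of them, PFKFB3 being the exception (9 after the GC correction, without ENO2 and CA9). Both clone 4 libraries were above parental for 6 (ALDOC, ENO2, PFKFB3, VEGFA, CA9, BNIP3), both below for 2 (NDRG1, DDIT4), and on either side for 4. After the GC correction both clone 4 libraries were above parental for 8, HK2 and PFKFB4 included, and both below for 3. Over all 41 members the median log2 ratio over parental was -0.43 and -0.37 in untreated and GSK126-treated clone 3, against -0.06 and -0.05 over the expressed genes. It was -0.08 and 0.04 in clone 4, against -0.07 and -0.11. After the GC correction the medians of the members were -0.39 and -0.34 in clone 3 and 0.11 and 0.21 in clone 4, against -0.007 to 0.004 over the expressed genes. The ratios of both clones share the parental library.

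The genes that were lower in clone 4 were EPAS1 and CA12. EPAS1 (ENSG00000116016, GRCh37 chromosome 2, 46520806 to 46613836, plus strand) had 4659 and 5452 normalized read counts in clone 3, 1639.8 and 3362 in clone 4, against 7823 in parental cells (log2 fold change -1.11, SE 0.21, DESeq2 adjusted p 5.457e-06). The order was parental, clone 3, clone 4, with no overlap between them. For CA12 the untreated clone 3 library (903) and the GSK126-treated clone 4 library (900.3) were nearly equal, and the log2 fold change was -0.82 (SE 0.22, DESeq2 adjusted p 0.0030). Without the treatment covariate neither was called (adjusted p 0.1923 for EPAS1 and 0.4591 for CA12). HIF1A did not follow EPAS1, with a log2 fold change of -0.01 (SE 0.16) between clones. Without either of the clone 3 libraries 5 members were called, all higher in clone 4, and without either of the clone 4 libraries 16 were. Of these, 13 without the untreated and 11 without the GSK126-treated clone 4 library were among the 14. CA12 was not called in any of the 4 fits, and without the GSK126-treated clone 4 library neither CA9 (DESeq2 adjusted p 0.1205) nor PDK3 (0.0513) was called. ALDOC, NDRG1 and PFKFB4 were called in all 11 alternative settings, and HK2 and VEGFA in all but the one with a minimum absolute log2 fold change of 1. That setting only filters the main calls, so it could not drop ALDOC, NDRG1 or PFKFB4. The EPCAM difference between clones given above moves with the comparison of clones, and its part in the result was not tested.

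It was then asked whether GSK126 changed these genes in the EIR clones. No change was called: 0 of 41 members were called by DESeq2 or by edgeR, and 0 had an unadjusted p under 0.05 in either, against 0.00335% of all genes (1 of 29847) called by DESeq2, 0 called by edgeR and 117 with an unadjusted p under 0.05 in DESeq2. The fit had no term for clone, so the difference between clones entered its spread. Since only 117 of 29847 genes reached an unadjusted DESeq2 p under 0.05, 0 among the members says little about whether they changed. The median log2 fold change was 0.03 over the members and 0.03 over all genes. In both clones 18 members were higher with GSK126 (43.9%, against 24.5% of all genes tested) and 10 lower (24.4%, against 16.3%). The SD of the log2 ratio of treated over untreated cells over the members was 0.19 in clone 3 and 0.35 in clone 4, well below the 0.61 between the untreated clones.

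CA12 had the highest log2 fold change of the list with GSK126 (0.76, SE 0.43, DESeq2 adjusted p 0.9999), with a log2 ratio of 0.68 in clone 3 and 0.93 in clone 4. EPAS1 had ratios of 0.23 and 1.04, and EGLN3 of 0.05 and 1.10, the latter on 44 and 91 raw counts in clone 4. HK2 (0.03 and 0.59), ENO2 (0.11 and 0.51) and LDHB (-0.02 and -0.54) likewise had values in clone 4 that clone 3 did not share. With the clone number as a block, 0 members passed the adjusted threshold (against 0.0134% of all genes), and CA12 and EPAS1 had an unadjusted DESeq2 p under 0.05 (2.533e-04 and 0.0035), with an adjusted p of 0.6300 for CA12. In edgeR with the block SLC2A3 joined them.

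**Figure D4:**
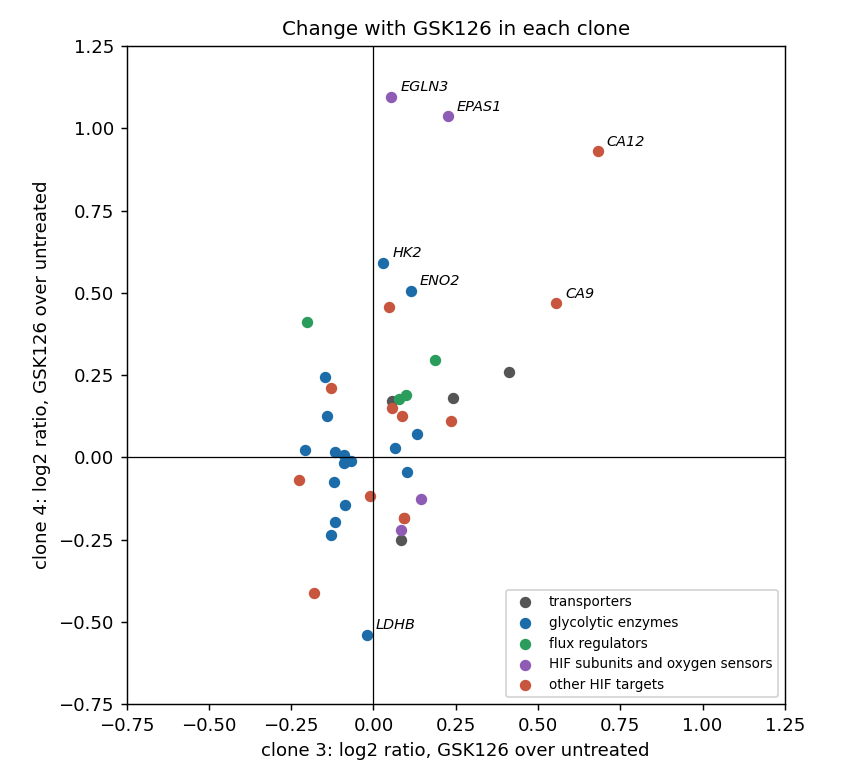
Each point is 1 of the 41 genes, placed by its log2 ratio of normalized read counts with GSK126 over untreated in clone 3 (x axis) and in clone 4 (y axis), coloured by role. CA12 (0.68 and 0.93) is high in both clones, EGLN3 and EPAS1 are high in clone 4, and the SD over the genes is 0.19 in clone 3 and 0.35 in clone 4.

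Other genes of the same pathways were then examined. Of 45 listed, 41 were matched, and the others were not analysed here. Against parental cells 10 of the 37 tested fell (27.0%, against 13.2% of all genes) and 0 rose. Those past a log2 fold change of 1 in size were the collagen cross-linking enzyme LOX (-3.41, with 40.3 normalized read counts in parental cells and at most 7.41 in EIR cells), the lysyl hydroxylase PLOD1 (-1.45), the alternative HIF partner ARNT2 (-1.11) and BSG (-1.04), the chaperone of the lactate transporters. For BSG the parental level of 9128 stood against 4238 to 4811 in the EIR libraries. The other genes that fell, by less, were PGM1, MPC1, PDK2, ARNT, VHL and MXI1. In edgeR 7 of the 10 were called, with an adjusted p of 0.0943 for MPC1, 0.0697 for PDK2 and 0.0662 for VHL, and with the GC correction 9 were (PDK2 0.2623), while BSG moved to -0.57. Between clones 8 of 37 were higher in clone 4 (21.6%, against 3.30% of all genes) and 0 lower, and 6 of these 8 were among the 15 further HIF targets tested. All 8 were called in edgeR and all but TMEM45A with the GC correction (DESeq2 adjusted p 0.4116). PLOD2, a collagen lysyl hydroxylase, had 2240.4 and 2189 in clone 3, 7499 and 6248 in clone 4, against 3788 in parental cells (log2 fold change 1.62, DESeq2 adjusted p 2.532e-19). ANGPTL4, a secreted inhibitor of lipoprotein lipase, had 159 and 152 in clone 3, 391 and 502.5 in clone 4, against 274 in parental cells (1.50, DESeq2 adjusted p 4.051e-05). Both had the arrangement seen for ALDOC and CA9, with clone 3 below clone 4 in every library. With GSK126 0 of these 41 genes were called, and 0 had an unadjusted p under 0.05 in DESeq2.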

How the data were processed

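The 5 total RNA libraries of TOV21G cells were analysed (1 parental, 4 EIR). The authors aligned reads to hg19 with bowtie2, and the deposited values are estimated counts per Ensembl gene from RSEM, not normalized, all whole numbers, used as deposited. Depth was 25479238 to 30764963 counts per library. Symbols, coordinates, length and GC content came from GENCODE mapped to GRCh37 (29203 of 30476 identifiers matched, 95.8%), and promoters from RefSeq GRCh38.p14. The two-sided Wald test of DESeq2 1.42.0 (R 4.3.3), at a Benjamini-Hochberg adjusted p under 0.05, was used after the methods of the study, with edgeR 4.0.16 as alternative. Scripts were tested on simulated data. Expressed genes had a mean of at least 100 normalized read counts, and ratios used a pseudocount of 0.5. The GC correction was a lowess (span 0.3). Clone numbers in the labels pair treated and untreated libraries of the same clone (correlation of deviations 0.86 over 11564 genes). Members and lists were chosen with earlier results of these data known. In each comparison the called members were named, with library values for those past a log2 fold change of 1 and the highest member of each role.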

Additional observations from a re-analysis of the deposited data

Results flagged for a closer look

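For 7 members both clone 3 libraries lay below the parental library and both clone 4 libraries above it. No share over all genes is given for this arrangement, so the count describes these members only. The difference between the mean log2 ratios of clone 4 and clone 3 over parental was 2.46 for CA9, 1.41 for ALDOC, 0.78 for ENO2, 0.76 for VEGFA, 0.54 for BNIP3, 0.43 for EGLN1 and 0.21 for GAPDH. The test of clone 4 against clone 3 addresses this difference, but it uses the same EIR libraries that selected these members. Its calls are thus no independent evidence of the arrangement. With DESeq2 the difference passed an adjusted p of 0.05 for CA9, ALDOC, ENO2, VEGFA and BNIP3. It did not pass for EGLN1 (0.1074) and GAPDH (0.6070). After the GC correction 4 of the 7 kept this arrangement. GAPDH was then above parental in both clone 3 libraries (0.16 and 0.10), and ENO2 and CA9 in the GSK126-treated one (0.04 and 0.15). Both ratios share 1 parental library.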

How the results depend on the processing

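Every called member kept its direction in all alternatives run. Against parental cells (4157 genes called, 48.4% of them higher) edgeR called 2024 genes (39.5% higher), summed clones 1914, treatment as covariate 1998 and a minimum absolute log2 fold change of 1 left 2115, and 8 to 14 members were called. Between clones (14 members, 1738 genes, median 0.30) the median of the members was 0.33 in edgeR, 0.32 with total count scaling and 0.33 with the count filter, and the minimum fold change left 5 members and 1096 genes. Leaving out 1 library at a time gave 5 to 16 members, 831 to 2800 genes and medians of 0.29 to 0.35. Those fits had no treatment covariate, and the lone library of a clone was assumed to vary like the pair of the other. With GSK126 (0 members, 1 gene, median 0.03) edgeR called 0 genes, and total count scaling gave a median of 0.11 for the members and 0.11 for all genes. The replicate block called 0 members and 4 genes, and 8 genes with GC correction, and changed no call of a member. Leaving out 1 library gave 1 to 25 genes and medians of -0.18 to 0.23. The causes were not tested. The block applies to the GSK126 comparison. Clone number could not serve as a block against parental cells, because the parental library shares none. Between clones it is itself the contrast, and there the treatment covariate matched the libraries by treatment. Counting depth limits CA9 and EGLN3 most, which had the fewest counts of the members.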
